A study of Mus musculus with 2 samples.

Results

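Aminoacyl-tRNA synthetases are the enzymes that attach each amino acid to its matching tRNA, so that the ribosome can read the message with the right residue. Cells carry a cytosolic set and a mitochondrial set, most of them encoded by separate nuclear genes. Several cytosolic synthetases sit in a large multi-tRNA synthetase complex, and a number of cytosolic synthetase genes are transcribed under ATF4, the transcription factor of the integrated stress response to uncharged tRNA and other stresses. In blood vessels some of these proteins have further roles, for example TrpRS and TyrRS, whose fragments act on endothelial cells from outside. The synthetase genes were taken by gene symbol from the platform annotation of the array. This gave 34 probe sets for 34 genes among 22206 gene probe sets, namely 19 for cytosolic and 15 for mitochondrial enzymes, and none of these genes had a second probe set. A symbol ending in 2 marked a mitochondrial enzyme, except Tarsl2, a cytosolic relative of Tars. Gars and Kars are counted as cytosolic, although each of these genes encodes the enzyme of both compartments. Fars2, the mitochondrial phenylalanine enzyme, falls outside the symbol rule and is given beside it, and Aars and Dars are not analysed here.

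The samples were cultures of F2, a mouse vascular endothelial line of mixed BALB/c and C57BL/6 background that came from a tumor induced by UV irradiation. Blue light cultures were transfected with hBACCS2, a light-driven switch that opens the Ca2+ channel ORAI1, and received 470 nm light at about 0.4 mW/mm2 in cycles of 2 min with 18 min between them over 4 h. The no blue light culture was labelled as transfected with hBACCS2 and not irradiated, but the series design text describes control cells that lacked hBACCS2, and the treatment note is shared by both samples. RNA of each condition was measured on 1 array, so no difference below has a replicate or a p-value, and no test was made. hBACCS2 was driven by a CAG promoter on a plasmid that part of the cells took up, so each value averages cells with and without it, and fewer responding cells cannot be told apart from a smaller response per cell.

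All values are the deposited log2 signals as they stand. A log2 ratio is the log2 signal with blue light minus that without it, and a ratio is the same difference on the linear scale. The median log2 ratio over all 22206 gene probe sets was 0.01. The study's methods name a signal cutoff of 24, and requiring it here on both arrays left 11695 gene probe sets, to which all shares below refer, and the 5222 negative control probes had median signals of 26.5 with blue light and 26.2 without it. All 12 endothelial markers of a fixed list, Pecam1 and Cdh5 among them, were over this cutoff, with summed signals of 434933 with blue light and 519070 without it. Of other cell types, 2 of 7 smooth muscle and fibroblast markers, 1 of 3 blood markers and 1 of 6 epithelial markers were over it, and Myh11, Ptprc and Epcam were under it on both arrays. Their summed signals were 181.4, 77.4 and 92.6 with blue light and 186.6, 80.9 and 72.1 without it. The part of the lower endothelial sum in the results below was not tested.

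As a group, the synthetases had signals with blue light close to those without it. Of the 30 members over the signal cutoff, 0 had a ratio above 2 and 0 had a ratio under 0.5, against 0.958% and 1.37% of all gene probe sets over the cutoff. Ratios above 1.5 were found for 2 members, Mars2 and Lars, against 7.55% of all gene probe sets. Iars was the 1 member lower by more than 1.5-fold, against 8.47%. Shares this small amount to few genes among 30, so these counts do not set the synthetases apart from other genes. Signals more than 25% higher with blue light were found for 4 members, against 20.4%, and signals more than 20% lower for 3, against 22%. These limits are the same distance from 0 on the log2 scale and are called the narrow limits below. The log2 ratio was above 0 for 16 of the 30 and below 0 for 14, where 48.5% of all gene probe sets were above 0 and 51.1% below. Under quantile scaling or loess centring, 19 of the 30 were above 0, since Gars, Nars and Tars lie near 0. Their median log2 ratio was 0.07, with a middle range between quartiles of -0.09 to 0.19, beside a median of -0.01 and quartiles of -0.28 and 0.25 over the gene probe sets over the cutoff. Ratios within the narrow limits were found for 23 of the 30, or 76.7%, against 57.6% of all gene probe sets over the cutoff. The share moved to 70% under median centring and quantile scaling and to 66.7% under loess centring, against 57.5% to 57.8% of all, and with median or loess centring 5 members were more than 20% lower in place of 3. For the 19 cytosolic members this share was 78.9%, against 57.8% of the 7897 gene probe sets within their range of mean signal. That range is wide, and most cytosolic members lie in its upper part, where log2 ratios spread less. Among gene probe sets nearest in signal to Kars, the central 90% of log2 ratios ran from -0.66 to 0.47. Among those nearest to Tarsl2, the cytosolic member of lowest signal, it ran from -0.82 to 0.73. The shares are thus not matched for signal, and the part of signal level in their difference was not tested.

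**Figure D1:**
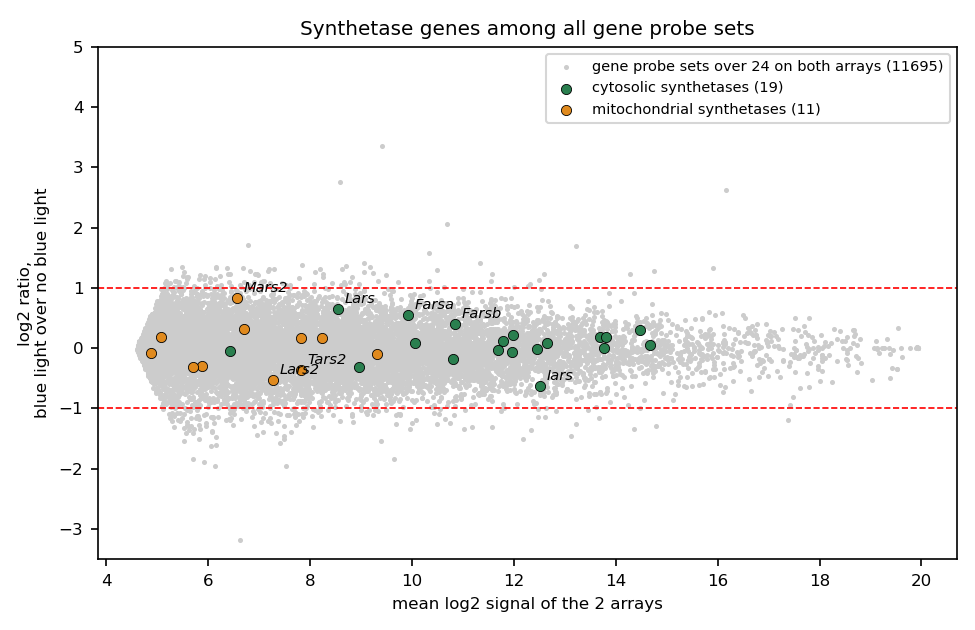
Log2 ratio (blue light over no blue light, vertical axis) against the mean log2 signal of the 2 arrays (horizontal axis) for the 11695 gene probe sets over the signal cutoff (grey) and for the 19 cytosolic (green) and 11 mitochondrial (orange) synthetase genes over it. Dashed lines mark ratios of 2 and 0.5. All synthetase genes lie between these lines, and the 7 named ones are more than 25% higher or more than 20% lower with blue light.

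Promoter sequences bear on these genes because ATF4 acts through the C/EBP-ATF response element, whose core was searched as TGATGNAA on either strand (TTNCATCA on the other). Promoter windows of RefSeq on build GRCm38.p6, from 250 bases before to 50 bases after each gene's start, were at hand for 25 of the 34 members. A match was found for 4 of 12 cytosolic members and 0 of 13 mitochondrial members, where 3.97% of all 32851 windows held one. A match is a description of letters and was not shown to be a site in these cells. The following stretches, 5′ to 3′ on the strand of the gene and with the match in capitals, are those of the 4 members, so that the sequence can be set beside the signal. For Gars (chr6:55037901-55038000, + strand) and Tars (chr15:11399659-11399758, - strand) they are the 100 bases up to the start, with the match beginning 30 and 15 bases before it.
Gars: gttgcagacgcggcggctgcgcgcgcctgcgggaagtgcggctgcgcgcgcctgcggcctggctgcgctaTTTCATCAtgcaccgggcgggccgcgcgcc
Tars: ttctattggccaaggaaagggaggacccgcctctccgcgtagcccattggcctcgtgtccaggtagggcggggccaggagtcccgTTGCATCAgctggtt
For Iars (chr13:49682126-49682155, + strand) and Yars (chr4:129189895-129189924, + strand) the match lies just past the start, and 30 bases around it are given.
Iars: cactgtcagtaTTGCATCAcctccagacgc
Yars: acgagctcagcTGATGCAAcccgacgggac

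The 4 genes with a match did not share a direction. Gars, the glycine enzyme, had signals of 13978 with blue light and 13987 without it, a log2 ratio of -0.0009 that became 0.06 under quantile scaling and 0.04 under loess centring. Tars, the threonine enzyme, had 5585 with blue light and 5604 without it, a log2 ratio of -0.01 that became 0.04 under quantile scaling or loess centring. Yars, the tyrosine enzyme, had 4378 with blue light and 3765 without it, a log2 ratio of 0.22, and Iars, the isoleucine enzyme, was lower, as given below. Atf4 itself had signals of 30405 with blue light and 12942 without it, a log2 ratio of 1.23. In the paper's quantitative PCR of hBACCS2-positive cells, the rise of Atf4 with blue light did not reach significance. Of the 11 measured cytosolic members on a list of genes commonly given as ATF4 targets, 5 had a log2 ratio above 0 and 6 below, with a median of -0.0009 (0.06 under quantile scaling and 0.04 under loess centring). The other 8 cytosolic members had a median of 0.14, with 6 above 0. This list was written from general knowledge with the level of Atf4 known.

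Among the cytosolic enzymes, Lars, Farsa and Farsb were highest with blue light relative to no blue light, and Iars was lowest. Lars attaches leucine and is known as a sensor of leucine for mTORC1. It had a signal of 471.3 with blue light and 300.2 without it, a ratio of 1.57 (log2 ratio 0.65). Of the 500 gene probe sets nearest to it in mean signal, the central 90% of log2 ratios ran from -0.67 to 0.62, so Lars lay just above them. Farsa and Farsb encode the alpha and beta subunits of the cytosolic phenylalanine enzyme, which works as a tetramer of both. Farsa had signals of 1168 with blue light and 800.8 without it, and Farsb had 2111 with blue light and 1594 without it. Both subunits were thus higher with blue light, at log2 ratios of 0.54 and 0.40, within the central 90% at their signals. Iars had a signal of 4706 with blue light and 7259 without it, a ratio of 0.648 (log2 ratio -0.63). The central 90% at its signal reached down to -0.71. Under quantile scaling and loess centring Iars was at -0.57 and -0.58, within 1.5-fold, and Farsa was at 0.59 under quantile scaling, past it.

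The remaining cytosolic members lay within the narrow limits. Rars, the arginine enzyme, had signals of 25198 with blue light and 20396 without it, a log2 ratio of 0.31. Sars, the serine enzyme, which limits vessel growth in zebrafish, had 14170 with blue light and 12426 without it. Kars, the lysine enzyme of cytosol and mitochondria, had 15299 with blue light and 13464 without it. Sars and Kars thus had almost the same log2 ratio, 0.19 and 0.18. Wars, the tryptophan enzyme, which interferon induces, had 3667 with blue light and 3387 without it, a log2 ratio of 0.11. Hars, Qars and Eprs, the enzymes of histidine, glutamine and, in a single protein, glutamate and proline, had log2 ratios of 0.09, 0.08 and 0.06. Nars, the asparagine enzyme, was at -0.03 (0.01 under quantile scaling and 0.02 under loess centring). Tarsl2 was at -0.04, Vars, the valine enzyme, at -0.06, Cars, the cysteine enzyme, at -0.18 and Mars1, the methionine enzyme, at -0.32. Mars1 had signals of 446.5 with blue light and 555.8 without it, a ratio of 0.803, just inside 0.8.

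**Figure D2:**
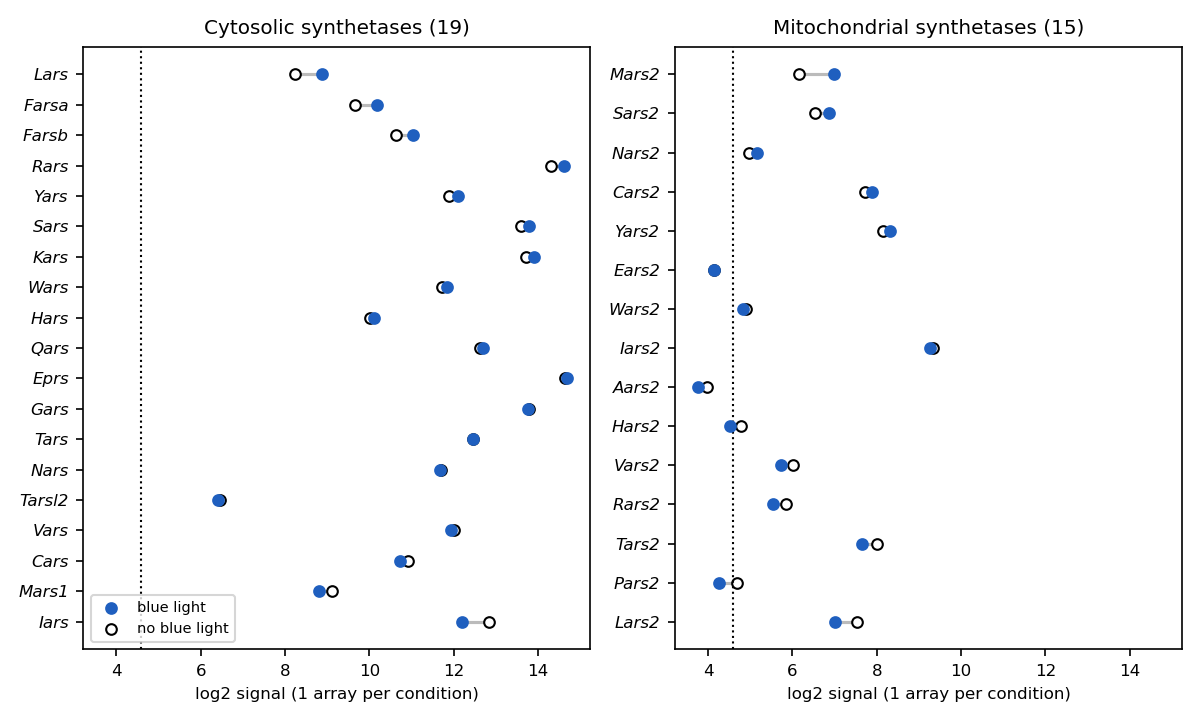
Log2 signal on the array with blue light (blue points) and on the array without it (open points) for the 19 cytosolic (left) and 15 mitochondrial (right) synthetase genes, each panel ordered by log2 ratio with the highest at the top. The dotted line is the signal cutoff of 24, and 4 mitochondrial genes lie at or below it on at least 1 array, while all cytosolic genes lie above it.

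Of the mitochondrial synthetases, Mars2 stood highest with blue light relative to no blue light and Lars2 lowest. Mars2, which charges methionine tRNA in mitochondria, had a signal of 126.8 with blue light and 71.3 without it. Its ratio of 1.78 and log2 ratio of 0.83 were the highest of all members and lay above the central 90% at its signal, which ended at 0.75. With 24 added to both signals its log2 ratio was 0.66. Of the 30 members over the cutoff, Mars2 and Lars were the 2 above the central 90% at their signals, and 0 were below. By definition, about 5% of the nearest probe sets lie on either side of such a range. Lars2, the mitochondrial leucine enzyme, had 128.3 with blue light and 185.6 without it, a log2 ratio of -0.53, and Tars2, that of threonine, had 199.7 with blue light and 256.7 without it, a log2 ratio of -0.36. These were the lowest of the 11 mitochondrial members over the cutoff, and both lay within the central 90% at their signals. Rars2 and Vars2, those of arginine and valine, were at -0.31 and -0.29, and Iars2 and Wars2, those of isoleucine and tryptophan, were both at -0.09. Sars2, the serine enzyme, had signals of 116.3 with blue light and 93.3 without it, a log2 ratio of 0.32. Nars2, Cars2 and Yars2, those of asparagine, cysteine and tyrosine, were at 0.18, 0.18 and 0.16. In all, 5 of the 11 were above 0 and 6 below, with a median of -0.09, beside a median of 0.08 for the cytosolic members. The 4 members that did not pass the cutoff were all mitochondrial. They charge proline, histidine, alanine and glutamate tRNA in mitochondria. Pars2 had signals of 19.2 with blue light and 25.8 without it, Hars2 23.1 and 27.7, and Aars2 13.6 and 15.8 in the same order. Ears2 had 17.7 on both arrays, exactly equal, as for 118 gene probe sets in all. Just inside the cutoff was Wars2, with 28.4 with blue light and 30.1 without it. Signals this low are near those of the negative controls, and no order is read from the 4 that did not pass.

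Cytosolic and mitochondrial genes for the same amino acid were set side by side for 12 amino acids, of which 11 had both genes over the signal cutoff. In 6 of these 11 the log2 ratios had opposite signs. Of all gene probe sets, 48.5% were above 0 and 51.1% below, so opposite signs are also common among genes that form no pair. Within the 11 pairs the mitochondrial log2 ratio was the lower in 6 and the higher in 5. The tryptophan and asparagine pairs in these counts rest on the low signals of Wars2 and Nars2. Rars2 and Vars2, of the arginine and valine pairs, were low too. Rars2 had signals of 46.8 with blue light and 58.1 without it, and Vars2 had 53.1 and 64.8 in that order. With 24 added to both signals Rars2 was at -0.21, within the narrow limits. Asparagine was among the 6 with opposite signs and threonine was not, and under quantile scaling or loess centring this was the other way round. Among the 12 amino acids, leucine stood furthest apart, with Lars2 at -0.53 and Lars at 0.65. Methionine came next and ran the other way, with Mars2 at 0.83 and Mars1 at -0.32. Arginine followed the order of leucine, with Rars2 at -0.31 and Rars at 0.31. The leucine genes were the 1 pair with opposite signs in which both members were past the narrow limits, but under quantile scaling or loess centring the arginine genes were past them too, and under median centring the methionine genes. Phenylalanine, outside the 12, had the order of leucine, and both cytosolic subunits were higher with blue light. Fars2 had signals of 152.4 with blue light and 254.2 without it, a log2 ratio of -0.74, within the central 90% at its signal. The tyrosine genes lay closest, with Yars2 at 0.16 and Yars at 0.22, and the serine genes were both above 0.

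**Figure D3:**
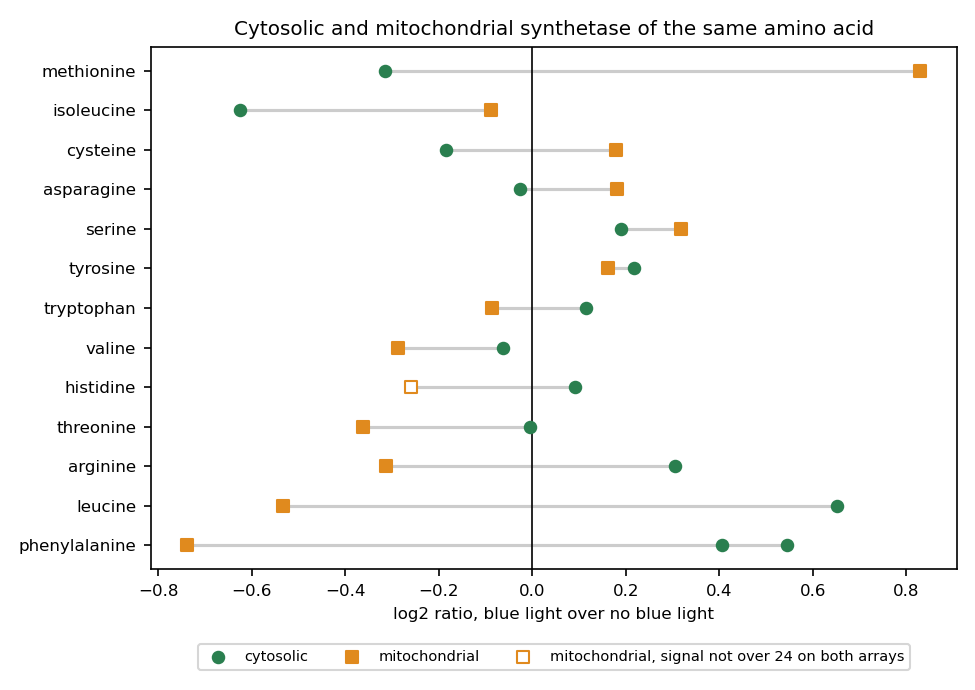
Log2 ratios (blue light over no blue light, horizontal axis) of the mitochondrial (orange squares) and cytosolic (green circles) synthetase genes of the same amino acid (rows), ordered by mitochondrial minus cytosolic with the highest at the top. Phenylalanine shows Farsa, Farsb and Fars2, and the open square is Hars2, which did not pass the signal cutoff. The gap is widest for leucine and phenylalanine on the lower rows and for methionine on the top row.

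Members that share a complex or a fold did not share a direction. Of the multi-tRNA synthetase complex 7 enzymes were measured, with a median log2 ratio of 0.08, and they held both the highest and the lowest cytosolic member, Lars and Iars. Eprs, Qars, Rars and Kars lay between, at 0.06 to 0.31, and Mars1 was at -0.32. The 3 scaffold genes of the complex were split likewise. Aimp2 had signals of 3210 with blue light and 4181 without it, a log2 ratio of -0.38, Eef1e1 had 11113 and 12696 in that order, a log2 ratio of -0.19, and Aimp1 had 288.3 and 232.3, a log2 ratio of 0.31. The 12 cytosolic members outside the complex had a median of 0.05, with log2 ratios from -0.18 to 0.54. Synthetases fall into class I and class II by the fold of their catalytic domain. The 17 class I members over the cutoff had a median of -0.06, with 8 above 0, and the 12 of class II had a median of 0.14, with 7 above 0. With no signal cutoff the class II median was -0.0009, and among genes over 100 on both arrays that of class I was 0.08.

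Of the genes that work beside the synthetases, 2 of 11 accessory and editing factors were lower past 1.5-fold and 0 higher, against 8.47% and 7.55% of all gene probe sets. Their list also held Fars2, itself a synthetase, with which 3 of 12 were lower, and leaving it out was chosen after its value was seen. The 2 factors were Gatc and Prorsd1. Gatc, a subunit of the amidotransferase that makes glutaminyl-tRNA in mitochondria in place of a glutamine enzyme, had signals of 5646 with blue light and 9307 without it, a log2 ratio of -0.72, and lay below the central 90% at its signal. Gatb and Qrsl1, its partner subunits, named after their values were seen, were at -0.04 and 0.09. Prorsd1, related to editing domains of the proline enzyme, had 41.4 with blue light and 63.2 without it. Among tRNA making and export genes, 1 of 9 was lower past 2-fold and 0 higher, against 1.37% and 0.958% of all gene probe sets. This was Clp1, an RNA kinase bound to the tRNA splicing endonuclease, with a signal of 135.2 with blue light and 326.4 without it, a ratio of 0.414 (log2 ratio -1.27). Xpot, which exports tRNA from the nucleus, had 888.4 with blue light and 1277 without it, a log2 ratio of -0.52. Rtcb, the tRNA ligase, chosen after its value was seen, had 3721 with blue light and 2701 without it, a log2 ratio of 0.46.

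Genes of translation elongation, among them the kinase gene Eef2k, had medians close to that of all gene probe sets. The 7 cytosolic ones over the cutoff had a median log2 ratio of 0.02, with 0 higher and 0 lower past 1.5-fold. The 5 mitochondrial ones had a median of 0.08, with 0 higher and 1 lower past 1.5-fold. Of all gene probe sets, 7.55% were higher and 8.47% lower past 1.5-fold. Gfm2, a mitochondrial factor of ribosome recycling, was at -0.76, with signals of 131.7 with blue light and 223.6 without it. The 76 genes named as mitochondrial ribosomal proteins had a median of 0.03, with 3 lower and 0 higher past 1.5-fold, against 8.47% and 7.55% of all gene probe sets. The 3 were Mrps36, Mrpl12 and Mrps17, at -0.95, -0.63 and -0.61.

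A list of uncharged tRNA sensing and the stress response it feeds, which also holds eIF2alpha kinases of other stresses and Ddit3 with 2 probe sets, had 9 probe sets over the cutoff and a median log2 ratio of 0.08, or 0.16 with the mean per symbol. Eif2ak4, which encodes the kinase GCN2 that binds uncharged tRNA, had signals of 104.7 with blue light and 129.9 without it, a log2 ratio of -0.31. Of the 9 probe sets, 2 were higher past 1.5-fold and 0 lower, against 7.55% and 8.47% of all gene probe sets. The 2 were Atf4 and Impact, an inhibitor of GCN2 activation. Impact had signals of 284.8 with blue light and 182.6 without it, a log2 ratio of 0.64, within the central 90% at its signal. Amino acid supply genes commonly listed as ATF4 targets had a median of 0.24, with 13 of 17 above 0, against 48.5% of all gene probe sets. Past 1.5-fold, 3 of the 17 were higher and 1 was lower, against 7.55% and 8.47%. Chac1, which degrades glutathione, was at 1.71, Psph, an enzyme of serine synthesis, at 0.90 and Gpt2, an alanine transaminase, at 0.75, and Aldh18a1, an enzyme of proline synthesis, was at -0.66. Other genes of the list lay near 0, so it did not move as a whole. Asns, Psat1 and Shmt2, named after their values were seen, were at -0.01, -0.02 and -0.03. Among genes over 100 on both arrays the median of the supply list was 0.11. The cytosolic synthetases on the list of ATF4 targets were thus at a median of -0.0009, beside 0.24 for the supply genes and 1.23 for Atf4. Over 100 on both arrays, the medians of these synthetases and the supply genes were -0.0009 and 0.11. Under loess centring they were 0.04 and 0.22. The difference between these lists was not tested.

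**Figure D4:**
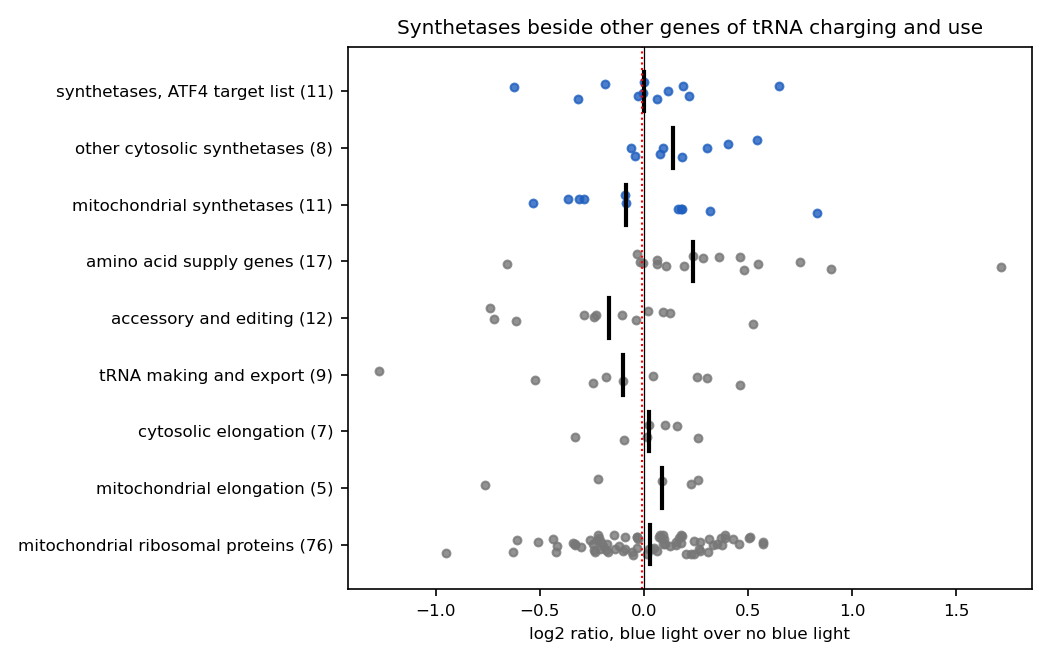
Log2 ratios (blue light over no blue light, horizontal axis) of single genes over the signal cutoff, with synthetases in blue and other genes of tRNA charging and use in grey, numbers of probe sets in parentheses. Black bars are medians, the dotted red line is the median of all gene probe sets over the cutoff (-0.01), and the vertical scatter within a row has no meaning. The medians of the 3 synthetase rows lie between -0.09 and 0.14.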

How the data were processed

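RNA of 1 culture per condition was hybridised to Clariom S mouse arrays. Normalization by the authors used the Microarray Data Analysis Tool, and the deposited values are log2 signals. How the tool normalized them or corrected for background was not stated in the paper or labels. Gene symbols came from the platform annotation, with 2634 of 22206 gene probe sets unnamed here, and no count includes the 6640 control rows. The 34 members were matched by symbol, and all 34 carry the identifier of the RefSeq gene of that name. Values were used without further scaling. Counts required a signal over 24 on both arrays. The study's methods give the value of 24 and do not say that both arrays must pass. Ratios of 2 and 1.5, and a narrow limit of 25% higher or 20% lower, were used as descriptions, with the same over all gene probe sets. No test was made with 1 array per condition. Precision is limited by this number of arrays. The members and gene lists were chosen with earlier results of these data known. All members were named. Of other lists, the scaffold genes, Fars2, Xpot, Atf4, Eif2ak4 and up to 3 genes each way past 1.5-fold were named. Gatb, Qrsl1, Rtcb, Asns, Psat1 and Shmt2 were added after their values were seen. The range of the 500 nearest probe sets was the 5th to 95th percentile. Scaling steps were tested on simulated data with a constant shift, 200 changed genes and no bias that depended on signal. That check does not show how well the scalings suit these data. Alternatives were median centring, quantile scaling, loess centring (span 0.3), 24 added to both signals, other signal cutoffs and the mean per symbol. Python 3.11.15, numpy 2.4.6, pandas 2.3.3, statsmodels 0.14.6 and matplotlib 3.10.9 were used.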

Additional observations from a re-analysis of the deposited data

How the results depend on the processing

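Of 272 medians and counts of the synthetase and related lists under the 8 alternatives, 255 stayed within 0.1 on the log2 scale (medians) or 1.5 times (counts), and 17 did not. Part of this was fixed in advance. No member had a second probe set, so the mean per symbol left member values as they were. Median centring shifts every log2 ratio by 0.01, so no median could move by 0.1 under it. Under median centring, 5 members were more than 20% lower, 2 of them cytosolic. Under quantile scaling, 0 members were lower past 1.5-fold (0 cytosolic), 2 cytosolic members were higher past 1.5-fold and 2 mitochondrial members were more than 25% higher. Under loess centring, 0 members were lower past 1.5-fold (0 cytosolic), and 5 members were more than 20% lower, 4 of them mitochondrial. With no signal cutoff the class II median was -0.0009. Among genes over 100 on both arrays, 1 member was higher past 1.5-fold, 0 mitochondrial members were higher past 1.5-fold and 0 more than 25% higher, 2 mitochondrial members were above 0, the class I median was 0.0791 and that of the supply genes 0.11. Single members moved by at most 0.07 under the scalings, where Gars, Nars and Tars, all near 0, turned from below to above 0 under quantile scaling and loess centring. With 24 added to both signals 4 members moved by over 0.1, by at most 0.22, and none changed sign. The causes were not tested. No paired analysis was possible because each condition has 1 array.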
